A study of Mus musculus with 20 samples.

Results

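The ligands and receptors of the TGF-beta and activin branches were followed in the epididymal white adipose tissue (eWAT) of lean, obese and treated mice. The set was 10 genes, named by symbol, out of 14776 genes in the expression table, and all 10 were found there. It held the 3 TGF-beta ligands (Tgfb1, Tgfb2, Tgfb3), the 3 TGF-beta receptors (Tgfbr1, Tgfbr2, Tgfbr3), 2 activin subunit genes (Inhba, Inhbb), the type I receptor gene Acvr1c and Ltbp2, a gene of the latent TGF-beta binding protein family. RNA sequencing was performed on 20 male C57BL/6J mice. The normal control group (NC, n = 6) ate normal chow. The high-fat diet group (HFD, n = 7) ate the high-fat feed and was gavaged with saline, and the SZ-A group (n = 7) ate the same feed and was gavaged with SZ-A, an alkaloid preparation from mulberry twig (Ramulus Mori). The mice were 6 weeks old at the start, the feed was given for 14 weeks before treatment, and treatment went on for 6 weeks with the same feed. The HFD and SZ-A groups therefore shared the diet and differed by the gavaged agent, whereas HFD and NC differed by the diet. In the study's list of groups, saline is named for HFD and not for NC. Bulk eWAT holds adipocytes, stromal, vascular and immune cells, so fewer cells of a type and less RNA per cell cannot be told apart.

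TGF-beta is secreted in a latent complex, is held in the matrix by binding proteins, and is released by integrins or proteases. The active dimer binds the type II receptor TGFBR2, which recruits and phosphorylates the type I receptor TGFBR1, and the signal passes to SMAD transcription factors that raise collagen and other matrix genes. TGFBR3 (betaglycan) is a co-receptor that presents ligand. Activins are dimers of inhibin beta subunits and signal through related receptors, and ALK7, the product of Acvr1c, is a type I receptor that is abundant in adipocytes and is known for restraining lipolysis.

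The promoter sequences of the 3 genes that passed the test below, and of Acvr1c, whose levels ran in the opposite direction, are shown because they place the transcripts described here on the genome. RefSeq (GRCm38.p6) promoter windows were matched for 8 of the 10 genes, not for Tgfb3 and Tgfbr3. Each sequence runs 5′ to 3′ on the strand of its gene and ends at the base before the start site, except that of Acvr1c, which was limited to the bases upstream of the annotated gene. They lie at chr7:25686752-25687001 on the plus strand (Tgfb1), chr4:47352972-47353221 on the plus strand (Tgfbr1), chr9:116175364-116175613 on the minus strand (Tgfbr2) and chr2:58357896-58358008 on the minus strand (Acvr1c). Capitals mark matches to the GC box letters GGGCGG and to CCAAT, each on either strand.
Tgfb1: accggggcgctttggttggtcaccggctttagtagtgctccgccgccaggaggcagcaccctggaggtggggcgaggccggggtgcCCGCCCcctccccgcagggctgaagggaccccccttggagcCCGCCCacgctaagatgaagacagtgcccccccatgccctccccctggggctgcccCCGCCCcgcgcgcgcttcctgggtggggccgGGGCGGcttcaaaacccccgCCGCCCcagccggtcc
Tgfbr1: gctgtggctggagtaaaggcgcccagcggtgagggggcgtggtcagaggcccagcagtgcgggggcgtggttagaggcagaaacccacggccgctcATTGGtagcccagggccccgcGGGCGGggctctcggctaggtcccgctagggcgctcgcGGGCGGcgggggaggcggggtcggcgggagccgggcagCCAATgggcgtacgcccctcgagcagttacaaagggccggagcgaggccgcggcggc
Tgfbr2: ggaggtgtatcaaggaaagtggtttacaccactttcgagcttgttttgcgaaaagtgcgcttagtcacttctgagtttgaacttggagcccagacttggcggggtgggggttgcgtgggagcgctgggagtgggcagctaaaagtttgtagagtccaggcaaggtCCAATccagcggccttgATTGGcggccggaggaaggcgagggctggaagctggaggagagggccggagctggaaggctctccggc
Acvr1c: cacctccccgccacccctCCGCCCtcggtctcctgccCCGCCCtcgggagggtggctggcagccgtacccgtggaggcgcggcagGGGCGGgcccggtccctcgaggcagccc
The Tgfb1 window held 5 GC boxes and no CCAAT, the Tgfbr1 window held 2 of each, and the Tgfbr2 window held 2 CCAAT boxes and no GC box. The Acvr1c window held 3 GC boxes. At least 1 GC box was present in 32.7% of all 32851 promoter windows of 250 bases, and at least 1 CCAAT in 33.8%, so the presence of either is not unusual. How often windows hold several matches was not computed. The letters TATAAA (12.4% of windows), CAGACA, the core of a SMAD-binding element (17.1%), TGANTCA of AP-1 sites (6.75%) and the PPAR DR1 element (0.0335%) were searched on both strands and were not in these 4 windows. RefSeq also gives a second start site for Tgfbr1 and for Acvr1c, inside the annotated genes, and those windows are not shown. The second Tgfbr1 window held CAGACA at position -203 from its start site.

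Expression was given as FPKM, reads scaled to exon length and to a size of each library, so levels can be compared between genes. The reads on the deposited genes, recovered from FPKM and exon length, numbered 13567667 to 19388628 per mouse. The library size implied by FPKM was below these reads in some mice (HFD replicate 1, 15406891 against 17216012) and above them in others (NC replicate 6, 14573007 against 13567667). It is thus not a plain total of reads, and how it was set is not known here. NC replicate 6 stood apart from the other mice. Adipoq, the adiponectin gene of adipocytes, was at 26.6 FPKM there against 859 to 2278 FPKM in the other 5 NC mice, and the epithelial keratin Krt18 was at 452 FPKM. Krt18 also exceeded 100 FPKM in NC replicates 1 and 2 and in SZ-A replicates 2 and 7, whereas it was at most 3.23 FPKM in HFD mice. Of 30 epididymis genes listed, 4 were in the table, and their summed level was 36.6 to 798 FPKM in NC, 3.52 to 7.68 FPKM in HFD and 9.59 to 251 FPKM in SZ-A. Results are therefore given with and without these mice, and the part of epididymal or epithelial RNA in them was not tested. The labels do not say that the mice were processed separately in batches.

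The levels of the 10 genes differed widely within each group. In NC mice, Tgfbr3 had the highest mean at 19.8 ± 13.5 FPKM (SD, n = 6), followed by Tgfbr2, Acvr1c, Tgfb1, Inhbb and Tgfbr1, of which Tgfbr2, Acvr1c and Tgfb1 were at 14.8, 14.1 and 11.8 FPKM. The ranges of these 6 genes overlapped, so their order in NC is within the spread between mice. Tgfb3, Ltbp2, Tgfb2 and Inhba had lower means, at 6.80, 3.94, 1.4 and 0.327 FPKM. In HFD mice the order opened out: Tgfb1 was first at 47.8 ± 10.2 FPKM (SD, n = 7) and Tgfbr2 second at 43.7 ± 4.37 FPKM, with overlapping ranges, and both lay above Tgfbr3 in every HFD mouse. Acvr1c moved from the third place in NC to the eighth in HFD, at 3.53 ± 2.18 FPKM. In SZ-A mice, Tgfb1, Tgfbr3 and Tgfbr2 were at 26.2, 23.5 and 23.2 FPKM and overlapped. Inhba was last in all 3 groups, with 14 to 87 recovered reads per mouse, which limits the precision of its values.

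**Figure D1:**
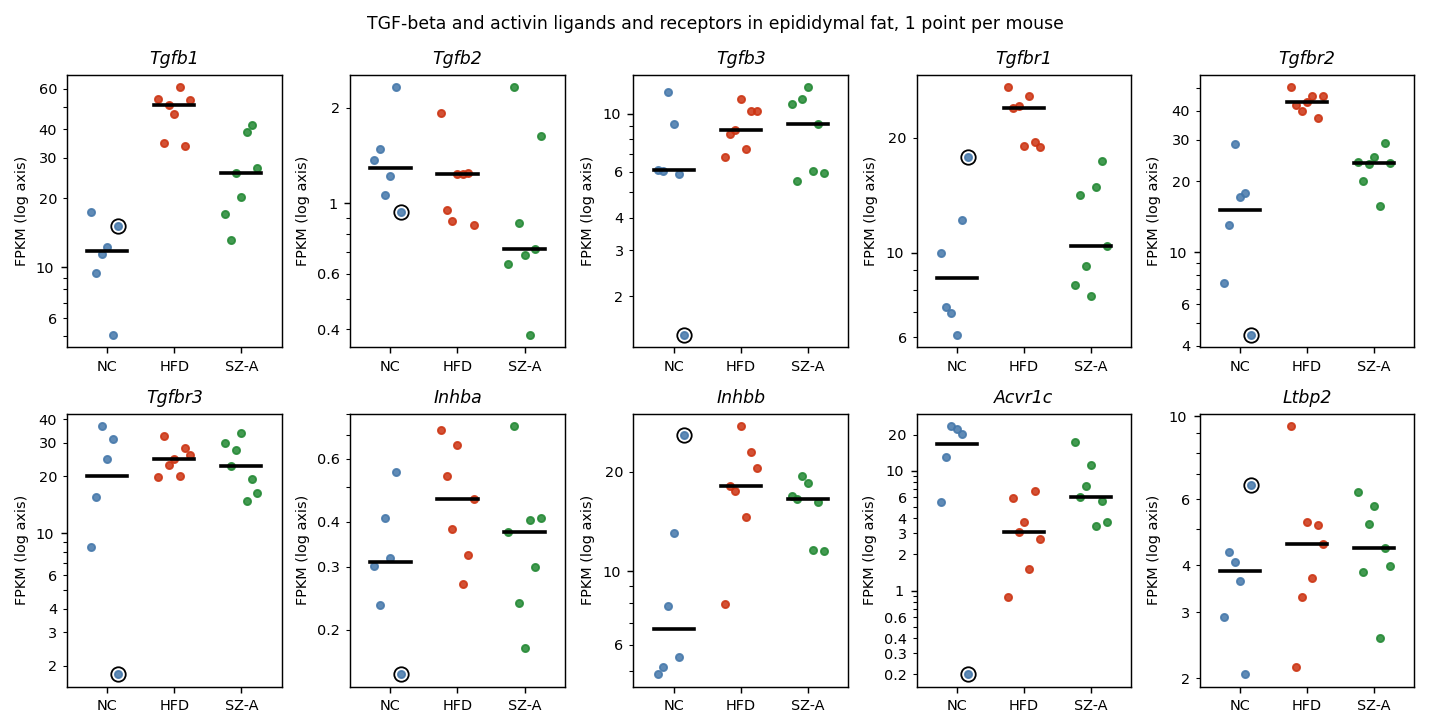
Expression of the 10 genes in each mouse, with FPKM on a log axis, 1 panel per gene and 1 point per mouse. Black lines mark group medians and the open circle marks NC replicate 6. The HFD points of Tgfb1, Tgfbr1 and Tgfbr2 lie above all NC points, and the circled mouse is lowest of the NC mice for Tgfb2, Tgfb3, Tgfbr2, Tgfbr3, Inhba and Acvr1c.

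The first comparison, HFD against NC, asks what the diet did to these genes. In eWAT of HFD mice the ligand Tgfb1 and both signalling receptors, Tgfbr1 and Tgfbr2, rose, and with all mice none of the 10 genes passed the test in the lower direction. Acvr1c, the gene with the most negative difference, passed it without NC replicate 6, as given below. These 3 of 10 genes passed an adjusted p of 0.05 in limma, where 41.1% of all 14706 genes tested were called, 21% higher and 20.1% lower. The share of the 10 genes that was called higher is thus near that of the table, and the median difference was 0.62 on the log2(FPKM + 1) scale over the 10 genes against -0.04 over all genes. The groups did not overlap for the same 3 genes, as for 12.7% of all genes in the higher direction. The threshold in the study's methods, an adjusted p under 0.05 with a log2 fold change over 1.5, was passed by Tgfb1 and Tgfbr2, and by 7.97% of all genes. The study's results text gives a plain fold change over 1.5 instead, and the log2 form is used here. The study applied its threshold to DESeq2 results, whereas here it is applied to limma differences of log2(FPKM + 1), so the counts are not comparable. Tgfbr2 no longer passed the log2 form without NC replicate 6 (1.44).

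Among the ligands, Tgfb1 (ENSMUSG00000002603, chr7:25687002-25705077, GRCm38) had levels of 5.06, 11.8 and 17.4 FPKM (lowest, median, highest) in NC and 33.8, 50.7 and 61.1 FPKM in HFD. Every HFD mouse lay above every NC mouse. The mean rose 4.05-fold, and the difference was 1.99 on the log2(FPKM + 1) scale (SE 0.24, adjusted p = 2.3e-05 by limma). An exact two-sided permutation test of the same values gave p = 0.000583, the smallest that 1716 regroupings allow. The other TGF-beta ligands did not pass the test. Tgfb3 was at 1.42, 6.09 and 12.2 FPKM in NC and 6.85, 8.66 and 11.4 FPKM in HFD, a difference of 0.51 (95% CI -0.14 to 1.16, adjusted p = 0.20 by limma). Tgfb2 was at 0.936 to 2.32 FPKM in NC and 0.855 to 1.93 FPKM in HFD, a difference of -0.12 (95% CI -0.42 to 0.17, adjusted p = 0.49 by limma). Both had ranges that overlapped between the groups.

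The make-up of the ligand pool differed with these levels. Tgfb1 accounted for a median of 54.9% of the summed FPKM of the 3 ligands in NC (38.1% to 86.6%) and of 82.8% in HFD (74.7% to 87.7%). The highest NC share was that of NC replicate 6, and the other 5 NC mice lay below every HFD mouse. Tgfb3 supplied most of the remainder, with a median of 38.0% in NC and 15.9% in HFD. Tgfb2 supplied 4.32% to 17.5% in NC and 1.33% to 3.06% in HFD, without overlap.

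**Figure D2:**
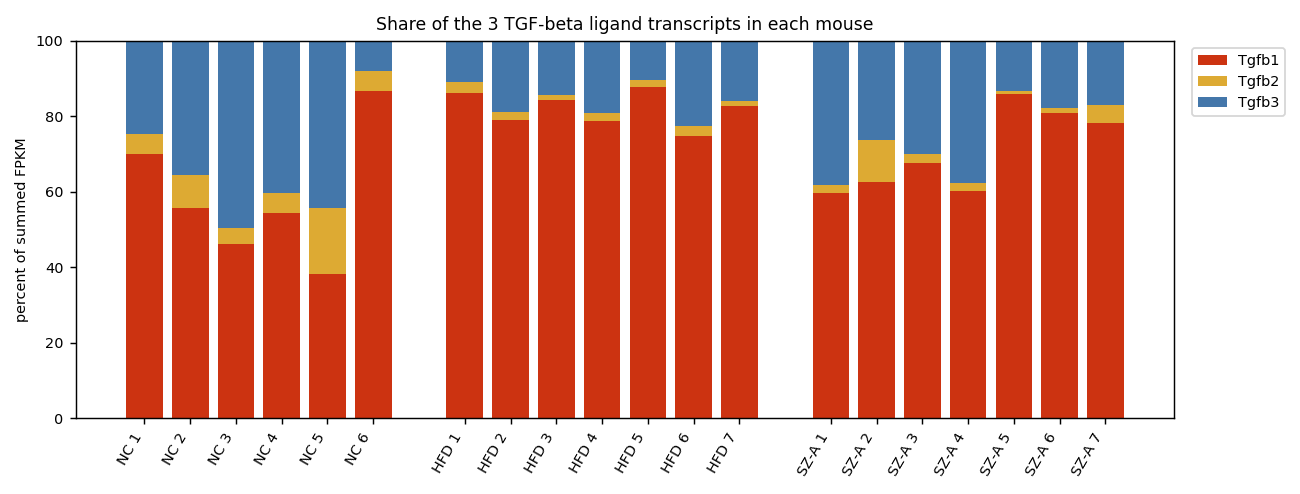
Share of Tgfb1, Tgfb2 and Tgfb3 in the summed FPKM of the 3 TGF-beta ligands, in percent, with 1 bar per mouse. Tgfb1 makes up 74.7% to 87.7% of the sum in HFD mice, and NC replicate 6, at 86.6%, lies within that range.

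Of the receptors, Tgfbr2 (ENSMUSG00000032440, chr9:116084293-116175360), the type II receptor that binds ligand first, was at 4.44, 15.1 and 28.9 FPKM in NC and at 37.3, 43.7 and 50.4 FPKM in HFD. All HFD mice were above all NC mice. The difference was 1.70 (SE 0.31, adjusted p = 7.5e-04 by limma), and its exact permutation p was also the smallest possible. Without NC replicate 6, which had the lowest value, it was 1.44 (adjusted p = 2.9e-04 by limma). Without all 3 NC mice above 100 FPKM of Krt18, an alternative added after the data were seen, it was 1.04 (adjusted p = 4.3e-04 by limma). With a score of the 4 epididymis genes as a covariate the direction turned, to -0.12 (adjusted p = 0.69 by limma). That score was lower in every HFD mouse than in every NC mouse, so it and the diet cannot be told apart in this fit.

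Tgfbr1 (ENSMUSG00000007613, chr4:47353222-47414931), the type I receptor that carries the signal to SMADs, was at 6.09, 8.59 and 17.8 FPKM in NC and at 18.9, 23.9 and 27.2 FPKM in HFD. The groups did not overlap, and the highest NC value was that of NC replicate 6. The difference was 1.17 (SE 0.21, adjusted p = 6.3e-04 by limma), 1.34 without NC replicate 6 and 1.37 without the 3 NC mice high in Krt18. The co-receptor Tgfbr3 did not pass the test. It was at 1.80, 20.1 and 36.7 FPKM in NC and 19.9, 24.6 and 32.8 FPKM in HFD, a difference of 0.72 (95% CI -0.33 to 1.77, adjusted p = 0.25 by limma), and both the lowest and the highest value belonged to NC. The ratio of Tgfbr3 to Tgfbr2 had a median of 1.23 in NC (0.406 to 1.76) and of 0.563 in HFD (0.396 to 0.775), and NC replicate 6 was the single NC mouse within the HFD range.

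In the activin branch no gene passed the test with all mice, and Inhbb and Acvr1c passed it when NC replicate 6 was left out. Inhbb, the inhibin beta B subunit, was at 4.88, 6.70 and 25.8 FPKM in NC and 7.98, 18.1 and 27.4 FPKM in HFD, and the highest NC value came from that mouse. The difference was 0.94 with all mice (adjusted p = 0.051 by limma), and 1.24 without it (SE 0.28, adjusted p = 0.0031 by limma), with overlapping values in both cases. With all mice kept, Inhbb lay near the threshold, and it also passed with a pseudocount of 0.1 (adjusted p = 0.0497 by limma), with all 3 groups in 1 fit (0.021), with median-ratio scaling (0.0496), with voom on recovered reads (0.045) and with array weights (0.0019). Acvr1c (ENSMUSG00000026834, chr2:58267453-58357895) was at 0.199, 16.7 and 23.6 FPKM in NC and at 0.880, 3.10 and 6.78 FPKM in HFD. The lowest NC value was again that of NC replicate 6, and of the other NC mice 1, at 5.48 FPKM, lay within the HFD range. The difference was -1.37 with all mice (95% CI -2.73 to 0.0018, adjusted p = 0.10 by limma). Without that mouse it was -1.99 (SE 0.40, adjusted p = 0.0013 by limma). Without all 3 NC mice above 100 FPKM of Krt18, the alternative added after the data were seen, it was -2.50 with no overlap. In the comparison without NC replicate 6, 5 of the 10 genes were called, 4 higher and 1 lower, where 45.2% of all genes were called. Without the 3 NC mice high in Krt18 the counts were also 4 and 1, against 42.7% of all genes. Exons of Tgfb2, Tgfb3, Tgfbr3, Acvr1c and Ltbp2 share bases with other annotated genes that are not in the table. The counting is not stated to have used strand, so reads from these stretches cannot be told apart.

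Inhba and Ltbp2 did not pass the test. Inhba, the beta A subunit, was at 0.150 to 0.551 FPKM in NC and 0.268 to 0.721 FPKM in HFD, a difference of 0.15 (95% CI -0.04 to 0.35). Inhbb made up 90.9% to 99.4% of the summed FPKM of the 2 activin subunits over all 20 mice, and other inhibin subunit genes were not in the table. Ltbp2, whose product binds microfibrils of the matrix, was at 2.05 to 6.57 FPKM in NC and 2.14 to 9.41 FPKM in HFD, a difference of 0.19 (95% CI -0.36 to 0.75).

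The second comparison, SZ-A against HFD, asks what SZ-A changed on the same diet. The 3 genes that had risen with the diet, Tgfb1, Tgfbr1 and Tgfbr2, fell, each to 0.518 to 0.549 of its HFD mean, and with all mice none of the 10 genes passed the test in the higher direction, with Acvr1c nearest to it. Since both comparisons share the HFD mice, their values are given side by side and are not independent of each other. The 3 of 10 called compare with 22.8% of all 14695 genes tested, and with 13.3% called lower and 9.47% called higher. The median difference was -0.13 over the 10 genes and 0.03 over all genes. None of the 10 passed the fold threshold of the study, which 0.864% of all genes passed.

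Tgfb1 was at 13.1, 25.6 and 41.5 FPKM in SZ-A mice. The highest 2 SZ-A mice, replicates 5 and 6 at 39.0 and 41.5 FPKM, lay within the HFD range of 33.8 to 61.1 FPKM, and the other 5 lay below it. The difference was -0.91 (SE 0.23, adjusted p = 0.013 by limma, exact permutation p = 0.0041). With the epididymis score as a covariate it was -0.52 (adjusted p = 0.20 by limma). The summed level of the genes in that score was 9.59 to 251 FPKM in SZ-A and 3.52 to 7.68 FPKM in HFD, without overlap. The score and the treatment therefore cannot be told apart in this fit. Tgfb1 made up a median of 67.6% of the ligand sum in SZ-A (59.6% to 85.8%), between the medians of the other groups.

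Tgfbr2 was at 15.7, 23.9 and 29.0 FPKM in SZ-A, and all 7 mice lay below the lowest HFD mouse at 37.3 FPKM. The difference was -0.90 (SE 0.12, adjusted p = 4.3e-04 by limma). Tgfbr1 was at 7.70, 10.4 and 17.4 FPKM, again with all SZ-A mice below all HFD mice. The difference was -0.93 (SE 0.17, adjusted p = 0.0022 by limma). For both receptors the exact permutation p was 0.000583, the smallest that 3432 regroupings allow. Such separation in the lower direction was found for 4.01% of all genes.

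Acvr1c was at 3.44, 6.02 and 17.4 FPKM in SZ-A against 0.880, 3.10 and 6.78 FPKM in HFD. The values overlapped, and 3 SZ-A mice lay above every HFD mouse. The mean was 2.22 times that of HFD, and the difference of 0.95 (95% CI 0.19 to 1.71) had an adjusted p of 0.067 by limma. Without SZ-A replicates 2 and 7, an alternative added after the data were seen, it was 1.13 (adjusted p = 0.049 by limma). Tgfb2 was -0.15 with all mice (95% CI -0.52 to 0.22) and -0.39 without those 2 mice (adjusted p = 0.027 by limma). Under that setting 5 of the 10 genes were called, 4 lower and 1 higher, against 25.9% of all genes. The remaining genes did not pass the test in either case. With all mice the intervals were -0.46 to 0.32 for Tgfb3, -0.50 to 0.27 for Tgfbr3, -0.30 to 0.10 for Inhba, -0.61 to 0.30 for Inhbb and -0.48 to 0.48 for Ltbp2.

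**Figure D3:**
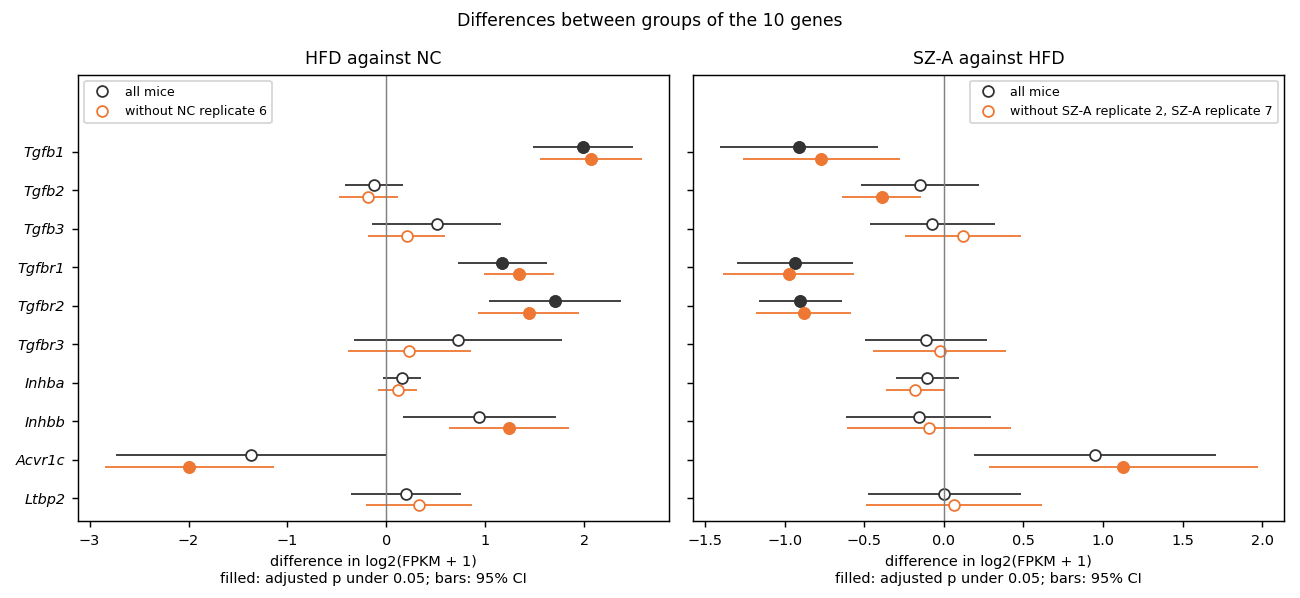
Difference in log2(FPKM + 1) for the 10 genes in HFD against NC (left) and SZ-A against HFD (right), with 95% confidence intervals, and filled points at an adjusted p under 0.05. Black points use all mice and orange points leave out NC replicate 6 (left) or SZ-A replicates 2 and 7 (right). Tgfb1, Tgfbr1 and Tgfbr2 are filled on both sides, and Inhbb and Acvr1c are filled on the left in orange alone.

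The third comparison, SZ-A against NC, asks how far the treated mice were from lean mice. None of the 10 genes passed the adjusted threshold in limma, where 4.61% of all 14718 genes did. At an unadjusted p under 0.05 there were 3, Tgfb1, Tgfbr2 and Inhbb, all higher in SZ-A, against 19% of all genes. Tgfb1 was 2.22 times its NC mean, a difference of 1.07 (95% CI 0.43 to 1.72, adjusted p = 0.059 by limma), and Tgfbr2 differed by 0.80 (95% CI 0.10 to 1.5). Tgfbr1 differed by 0.24 (95% CI -0.30 to 0.78), an interval that leaves room for a difference of either sign. Without NC replicate 6, Tgfb1 (1.16, adjusted p = 0.047 by limma) and Inhbb (1.08, adjusted p = 0.013 by limma) passed, so 2 of 10 genes were called against 5.5% of all genes. Without SZ-A replicate 2, Tgfb1 alone passed, with a difference of 1.22 (adjusted p = 0.028 by limma).

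Levels of cell type markers moved with the same groups. All 12 macrophage markers were in the table, and their summed level was 81.6 to 805 FPKM in NC, 3259 to 8907 FPKM in HFD and 1357 to 4515 FPKM in SZ-A. Of them, 11 rose in HFD against NC and 10 fell in SZ-A against HFD. The sum of 10 fibroblast and preadipocyte markers was 77.2 to 641 FPKM in NC, 650 to 952 FPKM in HFD and 457 to 641 FPKM in SZ-A, with 8 higher and 1 lower in the first comparison and 7 lower in the second. The sum of 12 adipocyte markers was 314 to 11554 FPKM, 1574 to 6368 FPKM and 4163 to 12299 FPKM. There 1 marker was higher and 2 were lower in HFD, and 2 were higher in SZ-A against HFD. The sum of 10 smooth muscle and pericyte markers was 177 to 1252 FPKM in NC, 52.9 to 190.2 FPKM in HFD and 118 to 535 FPKM in SZ-A, with 1 higher and 6 lower in the first comparison and 2 higher and 1 lower in the second. Of 10 endothelial markers none was called in the first comparison and 2 were higher in the second, and of 8 T cell markers 1 was higher and then 2 were lower. Of 10 mesothelial markers 3 were in the table. The keratins Krt18 and Krt19 were lower in HFD against NC, and Lrrn4 was not called. Krt18 is the epithelial keratin used above to mark single mice, so this fall is not specific to mesothelial cells. Of 6 B cell markers 2 were in the table and neither was called. The table holds no gene at 0 in any mouse. The part of these shifts in the values of the ligands and receptors was not tested.

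Between mice of the same group, several marker sums went with these genes, often more than 1 with the same gene. After the group means were removed, the log2 level of Acvr1c had a Pearson r of 0.93 with the log2 adipocyte marker sum over 20 mice, and of 0.86 over 19 mice without NC replicate 6. Tgfb3 had 0.92 and 0.82 with the same sum, and 0.87 and 0.67 with the fibroblast and preadipocyte sum. Tgfbr1 had -0.77 and -0.68 with the adipocyte sum. Tgfbr2 had 0.83 and 0.66 with the fibroblast and preadipocyte sum, and Tgfbr3 had 0.89 and 0.66 with it and 0.89 and 0.67 with the adipocyte sum. For Tgfb1 the value with the macrophage sum was 0.15, and 0.46 without that mouse, against 0.81 when the group means were kept, and with the smooth muscle and pericyte sum it was -0.59 and -0.71. Inhbb with the adipocyte sum went from -0.25 to 0.81 when that mouse was left out, so 1 library decided its sign. The sums add plain FPKM, so abundant markers weigh most in them. In the macrophage sum this is Lyz2, with a mean of 2890 FPKM in HFD. These values are descriptions, and in each mouse the gene and the markers come from the same library.

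**Figure D4:**
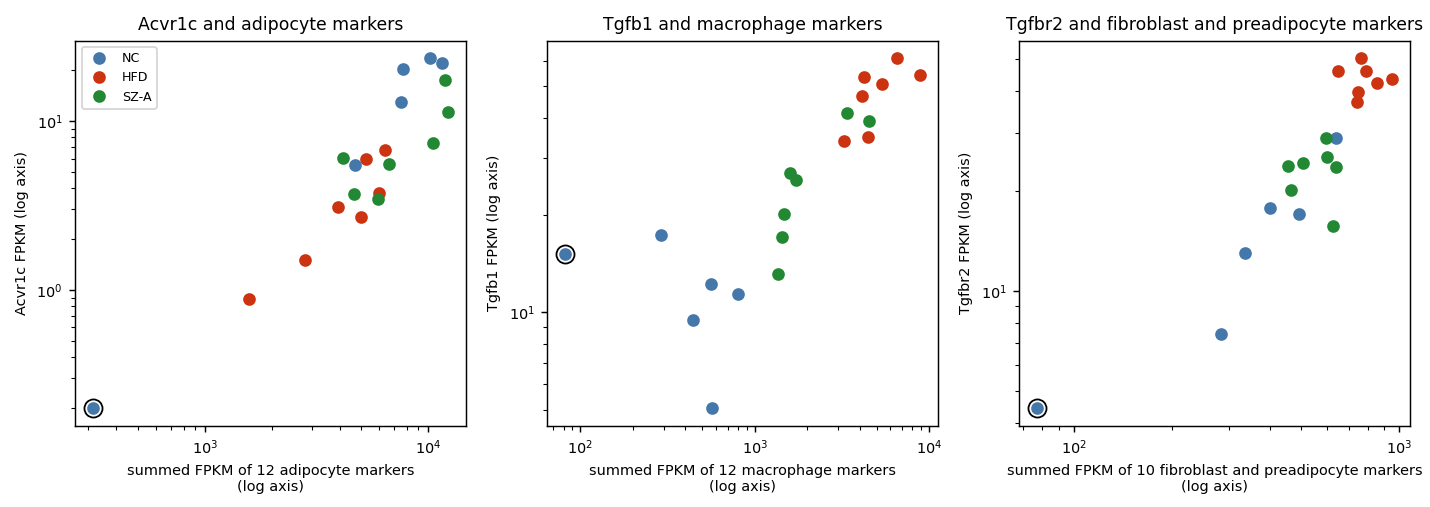
FPKM of Acvr1c, Tgfb1 and Tgfbr2 (log axis) against the summed FPKM of adipocyte, macrophage, and fibroblast and preadipocyte markers (log axis), with 1 point per mouse and NC replicate 6 circled. Acvr1c follows the adipocyte sum in all 3 groups, the HFD and SZ-A mice have macrophage sums of 1357 FPKM or more, and all NC mice have sums of at most 805 FPKM.

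The genes with the most similar profile to each of the 10 over the 20 mice, with genes whose mean was under 1 FPKM left out, are given as descriptions. For Acvr1c they were Fmo5, Pde3b, the phosphodiesterase of insulin-controlled lipolysis, and Gpat3, an enzyme of triglyceride synthesis (Pearson r 0.978, 0.974 and 0.972). For Tgfb1 they were Hmga1, Grb2 and Cfl1 (0.986, 0.985 and 0.979), genes of chromatin, receptor adaptor and actin functions. For Tgfbr2 they were Fn1, the gene of the matrix protein fibronectin, Naalad2 and Pla1a (0.978, 0.977 and 0.974). Tgfbr3 went with Zeb1, Heg1 and Chst15, Tgfbr1 with Bend4, Plxnb2 and Rasa1, and Tgfb3 with Ppm1f, Map4k4 and Myo1c, with r of 0.946 or more. The closest genes were less close for Inhbb (Bahcc1, Snx11 and Smpd1, 0.856 to 0.877), Tgfb2 (Cacna2d1, Twsg1 and Rnf139, 0.811 to 0.854), Inhba (Lrrc49, Tmem237 and Blmh, 0.684 to 0.837) and Ltbp2 (Lpcat3, Fadd and Xpnpep1, 0.707 to 0.726). Among the 10 genes themselves, Tgfbr3 and Acvr1c had an r of 0.94 after the group means were removed, and Tgfb3 and Tgfbr1 had -0.80.

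The other genes of the pathway were read from 6 lists of 132 genes, of which 110 were in the table. In HFD against NC, 36 rose, 9 fell and 65 did not pass the test, so 40.9% were called against 41.1% of all genes, and their median difference was 0.32 against -0.04 over all genes. In SZ-A against HFD, 7 rose, 30 fell and 73 did not pass, so 33.6% were called against 22.8% of all genes, with a median of -0.19 against 0.03. In SZ-A against NC, 5 were higher and 1 was lower, 5.45% against 4.61% of all genes. The called genes were found mostly in 2 of the lists, the genes of latency and activation and the genes known to be induced by TGF-beta.

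Of 21 genes for latency, storage and activation, 9 rose and 2 fell in HFD (median 0.82), and in SZ-A against HFD 10 fell and 1 rose (median -0.31). The share called was 52.4% in each comparison, against 41.1% and 22.8% of all genes. Mmp2, a gelatinase that can release latent TGF-beta, was at 11.7 ± 7.78 FPKM in NC (SD, n = 6), 122 ± 28.1 FPKM in HFD (n = 7) and 33.8 ± 10.9 FPKM in SZ-A (n = 7). It rose by 3.61 (adjusted p = 4.3e-05 by limma) and fell by 1.85 (adjusted p = 1.1e-04 by limma). Fbn1, the fibrillin of the microfibrils that hold latent complexes, rose by 3.12 and fell by 1.56. Nrros, which anchors latent TGF-beta on myeloid cells, rose by 2.97, and Mmp14 by 2.08, and in SZ-A they fell by 1.02 and 0.99 with overlapping values. The integrin gene Itgav, whose product pulls TGF-beta out of the latent complex, fell by 0.94 in SZ-A. Mmp9 was the single gene of the list that rose in SZ-A against HFD, by 0.73, and it had fallen in HFD against NC by 1.4. All the genes named here apart from Mmp9 in HFD against NC and Nrros and Mmp14 in SZ-A against HFD had groups that did not overlap.

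Of 30 genes known to be induced by TGF-beta, 17 rose and none fell in HFD (median 1.2), and in SZ-A against HFD 13 fell and none rose (median -0.37). The shares called were 56.7% and 43.3%, against 41.1% and 22.8% of all genes. Col3a1, a fibrillar collagen, was at 28.7 ± 18.9 FPKM in NC (SD, n = 6), 320 ± 70.7 FPKM in HFD (n = 7) and 90.7 ± 43.7 FPKM in SZ-A (n = 7). It rose by 3.96 (adjusted p = 2.6e-04 by limma) and fell by 1.89 (adjusted p = 3.8e-04 by limma). The protease inhibitor gene Timp1 rose by 4.0, and Col1a1 and Col1a2 by 3.76 and 2.88. In SZ-A, Fn1 fell by 1.43, Col1a2 by 1.35 and Loxl2, a collagen cross-linking enzyme, by 1.27, all with groups that did not overlap. The fibroblast and preadipocyte marker sum given above moved in the same directions, and its part in these values was not tested.

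In the remaining lists, the shares called in HFD against NC were 22.7% of antagonists, 30.8% of the receptor list and 23.1% of SMADs and partners. These were below the 41.1% of all genes, whereas 45.5% of the further ligands were called. In SZ-A against HFD, 40.9% of antagonists were called against 22.8% of all genes. There the shares were 18.2% for the further ligands, 7.69% for the receptor list and 7.69% for SMADs and partners. Of 22 antagonists and negative regulators, 4 rose and 1 fell in HFD, and 3 rose and 6 fell in SZ-A against HFD. Fstl1 and Bgn, follistatin-like and proteoglycan genes, rose by 2.92 and 2.64 in HFD and fell by 1.22 and 1.21 in SZ-A, and Bmper and Ski fell by 1.47 and 0.43. Of 13 genes in the list of receptors and co-receptors, 1 rose and 3 fell in HFD. Among those that fell was Tmem53, a membrane protein placed in this list that is no receptor, by 1.67. In SZ-A against HFD, Tmem53 was the single gene of the list called, higher by 1.07 (adjusted p = 0.033 by limma), so no receptor was called. Of 26 further ligands 11 were in the table, and Bmp1, a protease that processes collagens and latent complexes, rose by 1.71 and fell by 0.70. Of 13 SMADs and partners, 2 rose and 1 fell in HFD, and 1 rose in SZ-A. Gdf3, a ligand of ALK7, was not in the table used here.

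**Figure D5:**
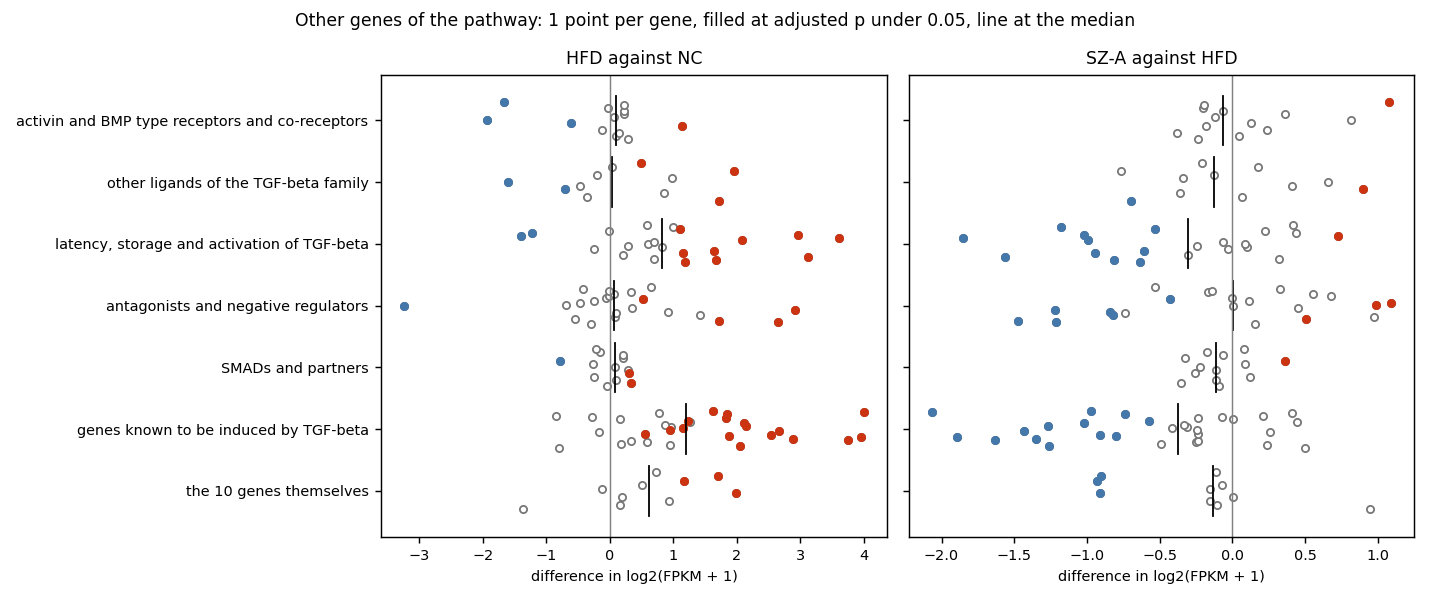
Difference in log2(FPKM + 1) of the other pathway genes in HFD against NC (left) and SZ-A against HFD (right), 1 point per gene, by list, with the median as a line and filled points at an adjusted p under 0.05 (red higher, blue lower). The genes known to be induced by TGF-beta have 17 filled points on the left, all higher, and 13 on the right, all lower.

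Without NC replicate 6, 45.2% of all genes were called in HFD against NC. The induced genes then had 18 higher and 2 lower (median 0.99), and the latency genes 10 higher and 2 lower (median 0.59). The antagonists had 5 higher and 6 lower in place of 4 and 1. Without NC replicates 1, 2 and 6, 42.7% of all genes were called. There the induced genes had 16 higher and 1 lower with a median of 0.66, and the latency genes 10 higher and 3 lower with a median of 0.38. The antagonists had 5 higher and 7 lower. Without SZ-A replicates 2 and 7, 25.9% of all genes were called in SZ-A against HFD. The induced genes had 12 lower and 1 higher in that comparison, and the latency genes 9 lower and 1 higher.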

How the data were processed

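Poly-A RNA of epididymal fat was sequenced in paired ends. Per the study's methods the reads were aligned to GRCm38 with HISAT2, and per the submitters' processing notes they were counted with featureCounts 1.5.0-p3. The authors deposited FPKM per gene for 20 mice, with no raw counts. The strand setting, and the filter behind the 14776 genes, are not given in the sources used here. The study gives 7 mice per group, whereas the labels used here give 6 NC mice.

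Reads were recovered from FPKM times exon length (GENCODE M21): 95.9% to 96.3% of values under 1000 reads were whole within 0.01 reads in each mouse, and 14770 of the genes were found in the annotation. Groups were compared in pairs with limma 3.58.1 (R 4.3.3) on log2(FPKM + 1), with the trend option, a mean of at least 0.1 FPKM and Benjamini-Hochberg adjustment over all genes. Fold changes on this scale understate the change of low genes. Single genes were also given exact permutation tests, two-sided. The p-values measure the spread between mice. The fit was also run on simulated data with known changes, and the outcome is not given here. Genes named outside the set were, in each pathway list, those called with no overlap in HFD against NC or SZ-A against HFD, at most 4 per list and comparison by size, and the 3 with the highest Pearson r to each gene of the set. Cell type markers were also named where their level stands beside a result. Gdf3 was named after its absence was seen. The values of 1 gene that this rule names are not reported here. The genes and lists were chosen with earlier results of these data known. Alternatives were other pseudocounts, filters, scalings, weights, voom on recovered reads, covariates, a replicate block and leaving out mice. Leaving out the mice above 100 FPKM of Krt18 was added after the data were seen, in every comparison.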

Additional observations from a re-analysis of the deposited data

Results flagged for a closer look

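Of 30 groups of values (10 genes in 3 groups), 1 held a mouse far from the others. Tgfb2 in HFD replicate 1 was at 1.93 FPKM, the highest of 7 HFD mice, and its gap to the nearest mouse was 0.579 of the range of the group, above Dixon's critical value for 7 samples. Chance gives such a mouse in about 1 of 20 groups.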

How the results depend on the processing

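Tgfb1, Tgfbr1 and Tgfbr2 kept their direction and call in HFD against NC and in SZ-A against HFD in every alternative except the epididymis covariate. That covariate turned Tgfbr2 in HFD against NC to -0.12 and left Tgfb1 in SZ-A against HFD at -0.52, uncalled (adjusted p = 0.20 by limma). The summed level of its genes did not overlap between the groups in either comparison, so it cannot be told apart from diet or treatment. With all mice, the study's threshold in its log2 form was passed by Tgfb1 and Tgfbr2 in HFD against NC alone. Of the 10 genes, 5 were called in HFD against NC with array weights (49.5% of all genes) and 5 without the mice above 100 FPKM of Krt18 (42.7%). The count was 4 with a pseudocount of 0.1 (40.7% of all genes), all 3 groups in 1 fit (40.8%), median-ratio scaling (41.1%) or voom (39.9%). With the epididymis covariate it was also 4 (27.2% of all genes), but Tgfbr3 was called lower and Tgfbr2 was not called. It was 3 to 5 when 1 mouse was left out (35.6% to 45.2% of all genes). In SZ-A against HFD the counts were 5 without those Krt18 mice (25.9% of all genes) and 0 at the log2 form of the study's threshold (0.864%). When 1 mouse was left out they were 3 to 4 (16% to 29.2% of all genes). In SZ-A against NC the counts were 1 with all 3 groups in 1 fit (10.4% of all genes) and 3 with array weights (17.9%, against 4.61% in the main fit). When 1 mouse was left out they were 0 to 2 (2.87% to 5.85% of all genes). Of the other pathway genes, 28 passed the study's threshold in HFD against NC (7.97% of all genes did). With all mice 45 were called (41.1% of all genes), and 38 to 58 when 1 mouse was left out (35.6% to 45.2%). In SZ-A against HFD, 20 were called with all 3 groups in 1 fit (14.2% of all genes), 57 with array weights (43.6%) and 5 at the study's threshold (0.864%). When 1 mouse was left out the count was 33 to 44 (16% to 29.2% of all genes). In SZ-A against NC, 20 were called with all 3 groups in 1 fit (10.4% of all genes) and 31 with array weights (17.9%). With the epididymis covariate 3 were called (2.65% of all genes), and 1 without the Krt18 mice (1.22%). When 1 mouse was left out the count was 3 to 15, with 15 without NC replicate 3 (5.85% of all genes) and 13 without NC replicate 6 (5.5%). With the replicate number as a block, 4 of the 10 genes and 37 others were called in HFD against NC, where 30.1% of all genes were called. Inhbb had an adjusted p of 0.024 by limma there. In SZ-A against NC the block gave 2 others (1.13% of all genes). Same-numbered mice had correlations of -0.41 to 0.58. Mice with different numbers were not compared, so whether the numbers pair the mice was not tested. Values of genes that were uncalled with all mice turned sign as follows. In HFD against NC the epididymis covariate gave Tgfb3 -0.88, Tgfbr3 -1.95 (adjusted p = 0.0085 by limma) and Inhba -0.091, and leaving out the Krt18 mice gave Tgfbr3 -0.30. In SZ-A against HFD, Ltbp2 was -0.0070 with median-ratio scaling, Tgfb3 was 0.15 and Tgfbr3 0.14 with array weights, and Tgfb3 was 0.20 with the covariate and 0.12 without the Krt18 mice. In SZ-A against NC, Inhba was -0.0071 with quantile normalization, -0.013 with array weights and -0.13 without the Krt18 mice, Tgfb3 was -0.0051 with the covariate and Tgfbr3 was -0.33 without the Krt18 mice. When 1 mouse was left out, Tgfb3 ranged from -0.16 to 0.016 and Ltbp2 from -0.13 to 0.16 in SZ-A against HFD, and Inhba from -0.0070 to 0.097 in SZ-A against NC. Apart from the choice of mice, the cause of these shifts was not tested. The low read numbers of Inhba and Tgfb2 limit what could be detected for them.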
